A study of Caenorhabditis elegans with 6 samples.

Results

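Lysozymes are enzymes that cut the peptidoglycan wall of bacteria, and 10 lysozyme genes of *Caenorhabditis elegans* were followed in whole adult worms upon RNAi of *unc-62*, the worm Homothorax homeobox gene. The rule lists the genes by name and sets no threshold on their values, though it was drawn up with earlier results of these data known: 7 protist-type genes (*lys-1*, *lys-2*, *lys-4*, *lys-5*, *lys-6*, *lys-7* and *lys-8*) and 3 invertebrate-type genes (*ilys-2*, *ilys-3* and *ilys-5*). They are 10 of the 17682 genes measured. Of these 10, 8 were among the 7333 genes with enough reads to be tested, while *lys-5* and *lys-6* were not.

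The study asked which transcripts change when *unc-62* is knocked down in adults. Hermaphrodites of the sterile strain TJ1060, which carries the alleles fem-15(b26);spe-9(hc88), were raised at 25°C and moved on day 1 of adulthood either to bacteria for *unc-62* RNAi or to empty vector bacteria (control RNAi). Polyadenylated RNA was taken from whole worms at adult day 4, when they had spent 3 days on RNAi at 20°C, and 400 ng was made into 3′ end-enriched libraries sequenced as reads of 36 bases. Each treatment has 3 libraries, 1 from each of 3 independent batches of pooled worms that were divided between the treatments. Both groups carry the same fem-15 and spe-9 alleles, so the values hold for this sterile background, and RNAi by feeding was not limited to a tissue.

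Worms feed on bacteria, and lysozymes serve both digestion in the gut and defence against infection. The protist-type enzymes resemble those of amoebae, and many of their genes are transcribed in the intestine and respond to pathogens through the p38 MAP kinase, insulin/DAF-16 and DBL-1/TGF-β pathways. The invertebrate-type enzymes form a separate family shared with molluscs and other invertebrates, of which ILYS-3 is known to act on peptidoglycan in the pharynx and intestine.

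The libraries held 17124802 to 22868980 uniquely mapped reads upon *unc-62* RNAi and 15188765 to 21463842 upon control RNAi. *unc-62* transcripts gave 17, 39 and 25 reads upon knockdown and 27, 31 and 26 upon control RNAi, with a log2 fold change of −0.27 ± 0.28 (SE, limma adjusted p = 0.746), so its own reads did not separate the treatments. The *unc-62* RNAi libraries shared 1 sequencing lane and the control libraries another, so lane and treatment cannot be told apart in any comparison below. In RNA from whole worms, fewer cells of a type and less RNA per cell cannot be told apart either. Fold changes are given as *unc-62* RNAi over control RNAi on the scale log2(RPM + 0.05) after TMM scaling, where RPM is reads per 1000000 uniquely mapped reads, and a gene was called when its adjusted p was under 0.1.

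Among the 8 tested members, the largest difference was that of *lys-8*, which averaged 117 ± 25.95 RPM upon *unc-62* RNAi and 30.8 ± 8.74 RPM upon control RNAi (SD, n = 3 each), a 3.82-fold difference of the means. *lys-4* was also higher in every *unc-62* RNAi library than in any control library, at 6.44 ± 0.949 RPM against 3.60 ± 0.793 RPM, a 1.79-fold difference. Neither passed the threshold over all genes in the fit that keeps the replicate number as a block, although *lys-8* passed it in the same fit with no block. The invertebrate-type *ilys-5* held 91.7% or more of the lysozyme reads in each of the 6 libraries and did not separate the treatments, with a log2 fold change of −0.13 and a 95% interval of −0.50 to 0.23. *ilys-3* differed widely between libraries of the same treatment, reaching 363 RPM in 1 *unc-62* RNAi library and 70.8 RPM in another.

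**Figure D1:**
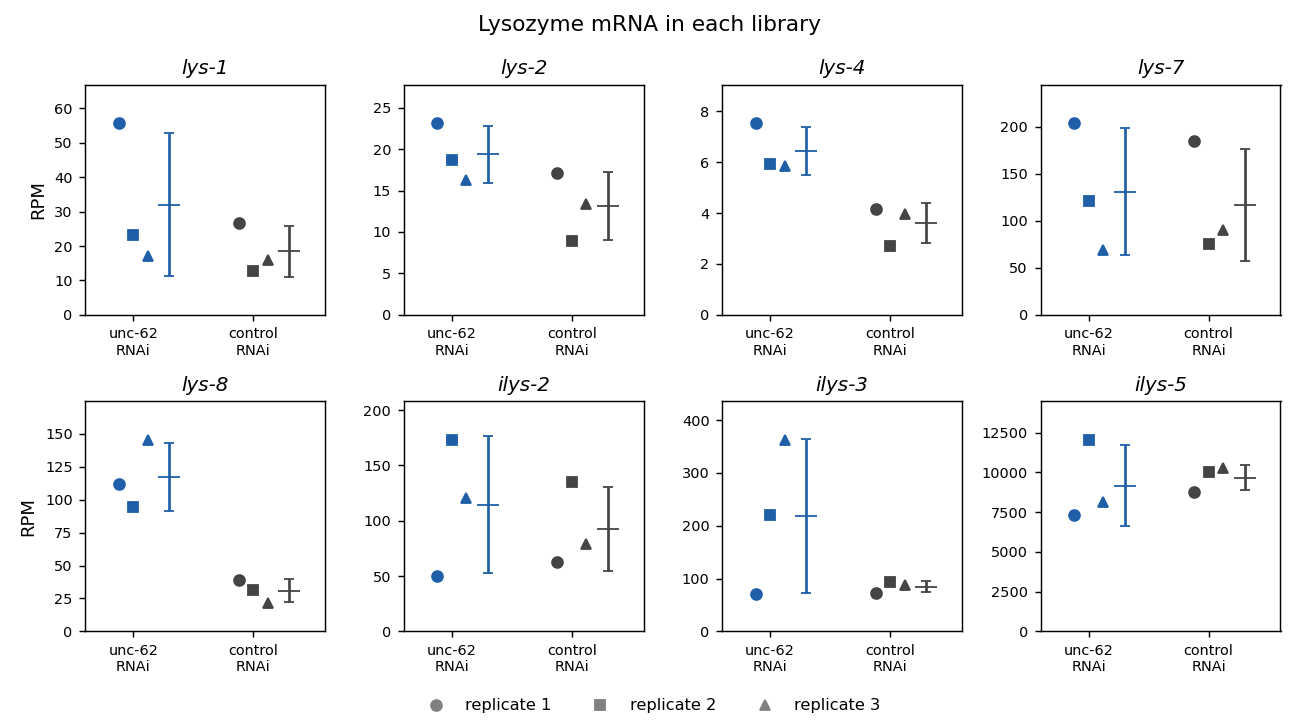
RPM (linear axes from 0) of the 8 tested lysozyme genes in each library, with *unc-62* RNAi in blue at the left and control RNAi in grey at the right. Marker shape gives the replicate, and the bar beside the points gives the mean ± SD of 3 libraries. *lys-4* and *lys-8* are the genes whose treatments do not overlap, and the *unc-62* RNAi points of *ilys-3* run from 70.8 to 363 RPM.

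Counted over the members, 0 of the 8 tested lysozyme genes passed an adjusted p of 0.1 in limma with the replicate block, where 1.31% of the 7333 tested genes did (96 genes). At an unadjusted p under 0.05 there were 2, *lys-4* and *lys-8*, where 13.3% of tested genes passed. *lys-8* was the 1 member called by limma with no block (1.94% of tested genes called), by DESeq2 on the whole reads recovered from the RPM values (4.01% called) and by rank products, the method of the study (2.48% called), whereas edgeR with the block called 0 members (1.38% called). All RPM values of *unc-62* RNAi libraries lay above all those of control libraries for 2 members, *lys-4* and *lys-8*, and for 6.42% of tested genes. Higher values in *unc-62* RNAi than in control RNAi within each of the 3 replicates were found for 4 members (*lys-1*, *lys-2*, *lys-4* and *lys-8*) and for 16.4% of tested genes. The median log2 fold change of the 8 members was 0.61, beside a median of 0.04 over all tested genes. Of the 8, 7 were above 0 and 1 below, where 3966 of the 7333 tested genes were above 0. Above 0 were 5 of the 8 members in replicate 1, 8 in replicate 2 and 6 in replicate 3.

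**Figure D2:**
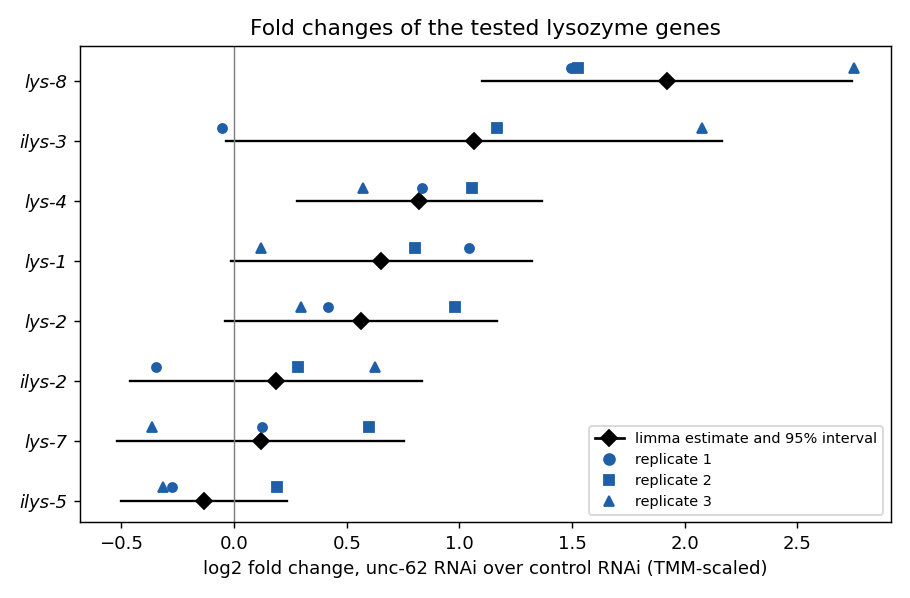
Log2 fold change of each tested lysozyme gene, *unc-62* RNAi over control RNAi after TMM scaling, ordered by the limma estimate (black diamond, with its 95% interval as a line) and with the 3 within-replicate values above it in blue. The intervals of *lys-8* (1.10 to 2.74) and *lys-4* (0.28 to 1.37) lie above 0, and those of the other 6 genes include 0.

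*lys-8* encodes a protist-type lysozyme that is known as a target of the insulin pathway factor DAF-16 and of DBL-1 signalling. Its level was 112, 94.4 and 145.5 RPM in the *unc-62* RNAi libraries of replicates 1, 2 and 3, from 1923, 2159 and 2693 reads, and 39.4, 31.05 and 21.9 RPM in the control libraries, from 598, 531 and 470 reads. The lowest *unc-62* RNAi library was thus well above the highest control library, and replicate 3 held both the highest *unc-62* RNAi value and the lowest control value. The log2 fold change was 1.92 ± 0.32 (SE; 95% interval 1.10 to 2.74, or 2.15-fold to 6.70-fold), with an unadjusted p of 0.00182 and an adjusted p of 0.115 in limma. Within replicates 1, 2 and 3 it was 1.49, 1.53 and 2.75. The adjusted p was 0.033 in limma with no replicate block, 0.000697 in DESeq2 and 0.115 in edgeR, and the rank product method gave an estimated false positive fraction of 0.0627. It was also 0.0756 when TMM took uniquely mapped reads as the library size. A 3 against 3 exact permutation test of the RPM values, two-sided and without the replicate block, gave p = 0.1. This is the smallest value that 3 against 3 libraries allow when the replicate number is ignored.

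*lys-4* lies beside *lys-5* and *lys-6* on chromosome IV (gene order in WBcel235) and was the least abundant of the tested members. It had 129, 136 and 108 reads upon *unc-62* RNAi (7.53, 5.95 and 5.84 RPM) and 63, 46 and 85 reads upon control RNAi (4.15, 2.69 and 3.96 RPM). The treatments did not overlap, and the spread within each was small beside that of most other members. Its log2 fold change was 0.82 ± 0.21 (SE; 95% interval 0.28 to 1.37), with values of 0.84, 1.06 and 0.57 within the replicates, an unadjusted p of 0.0115 and an adjusted p of 0.195 in limma. The exact permutation p was again 0.1.

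*lys-1* and *lys-2*, neighbours on chromosome V that are known as pathogen-responsive genes of the intestine, had like estimates. *lys-1* was at 55.7, 23.4 and 17.02 RPM upon *unc-62* RNAi and at 26.7, 12.7 and 15.9 RPM upon control RNAi. The treatments overlapped because the control library of replicate 1 stood above 2 of the *unc-62* RNAi libraries, and the *unc-62* RNAi library of replicate 1 was the highest of all. The log2 fold change was 0.65 ± 0.26 (SE; 95% interval −0.01 to 1.32, limma adjusted p = 0.386), with 1.04, 0.80 and 0.12 within the replicates. *lys-2* was at 23.1, 18.7 and 16.3 RPM upon *unc-62* RNAi and at 17.1, 8.95 and 13.4 RPM upon control RNAi, and overlapped between the lowest *unc-62* RNAi library and the highest control library. Its log2 fold change was 0.56 ± 0.24 (SE; 95% interval −0.04 to 1.17, limma adjusted p = 0.41), with 0.42, 0.98 and 0.30 within the replicates.

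*lys-7*, a known target of DAF-16 that worms need for full resistance to several pathogens, was at 204, 121 and 69.0 RPM upon *unc-62* RNAi and at 185, 75.6 and 90.1 RPM upon control RNAi. The highest library in each treatment was that of replicate 1, and the treatments overlapped over nearly their whole range. The log2 fold change was 0.12 ± 0.25 (SE; 95% interval −0.52 to 0.76, limma adjusted p = 0.883), and it was below 0 in replicate 3, at −0.37.

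The members under the read minimum gave no fold change. *lys-6* had 9, 5 and 4 reads upon *unc-62* RNAi and 4, 6 and 2 upon control RNAi, which sum to 18 and 12 reads, a ratio per uniquely mapped read of 1.38 with a counting interval of 0.628 to 3.14. *lys-5* had 1 read in the 6 libraries together, in replicate 3 of *unc-62* RNAi. A difference in either gene was not detectable at this depth. Intervals on reads here and below cover counting error only.

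*ilys-3* and *ilys-2*, invertebrate-type genes that neighbour each other on chromosome IV, had the widest ranges among the *unc-62* RNAi libraries by highest over lowest value. *ilys-3* was at 70.8, 221 and 363 RPM in the *unc-62* RNAi libraries of replicates 1, 2 and 3, and at 72.8, 93.2 and 87.0 RPM in the control libraries. Replicates 2 and 3 of *unc-62* RNAi thus stood above every control library, but replicate 1 stood below every one. The highest *ilys-3* library was 5.12 times the lowest upon *unc-62* RNAi and 1.28 times upon control RNAi. The log2 fold change was 1.06 ± 0.43 (SE; 95% interval −0.04 to 2.16), with an unadjusted p of 0.0555 and an adjusted p of 0.392 in limma.

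*ilys-2* was at 50.04, 173 and 120 RPM upon *unc-62* RNAi and at 62.9, 135 and 79.0 RPM upon control RNAi, overlapping over most of the range, and its highest library was 3.46 times its lowest upon *unc-62* RNAi and 2.15 times upon control RNAi. Its within-replicate log2 fold changes of −0.35, 0.28 and 0.62 gave an estimate of 0.19 ± 0.25 (SE; 95% interval −0.46 to 0.84, limma adjusted p = 0.806).

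*ilys-5*, on the X chromosome beside *ceh-60*, ranked 20 by mean RPM among the 17682 genes upon *unc-62* RNAi and 19 upon control RNAi. It was at 7309, 12043 and 8130 RPM in the *unc-62* RNAi libraries and at 8747, 10005 and 10260 RPM in the control libraries. The *unc-62* RNAi libraries held both the lowest values and the highest one, and their SD of 2530 RPM exceeded that of 810 RPM upon control RNAi. The log2 fold change was −0.13 ± 0.14 (SE; 95% interval −0.50 to 0.23, or 0.707-fold to 1.18-fold, limma adjusted p = 0.751).

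As a share of uniquely mapped reads, the 10 genes together made up 0.783%, 1.27% and 0.887% of the *unc-62* RNAi libraries and 0.9155%, 1.04% and 1.06% of the control libraries. The means, 0.980 ± 0.256% and 1.003 ± 0.0764% (SD, n = 3 each), differed by less than the spread. *ilys-5* alone made up 91.7% to 94.8% of lysozyme reads upon *unc-62* RNAi and 95.5% to 97.05% upon control RNAi. Without *ilys-5* the other 9 genes summed to 639 ± 108 RPM upon *unc-62* RNAi and 360 ± 48.4 RPM upon control RNAi, a ratio of 1.78, and the treatments did not overlap. Most of this difference came from *ilys-3* (means of 218 and 84.3 RPM) and *lys-8* (117 and 30.8 RPM). *ilys-3* by itself overlapped between the treatments. The 7 *lys* genes summed to 403, 263 and 254 RPM upon *unc-62* RNAi and to 272.5, 131 and 145 RPM upon control RNAi, overlapping between replicate 1 of the control and replicates 2 and 3 of *unc-62* RNAi. Among the reads outside *ilys-5*, *lys-8* took 21.4%, 14.4% and 19.75% upon *unc-62* RNAi and 9.65%, 8.64% and 7.03% upon control RNAi. These sums and shares are descriptions with no test.

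Per kilobase of exon, with lengths from WBcel235, the mean level of *ilys-5* upon *unc-62* RNAi was 7883 RPM per kb, followed by *ilys-3* at 441, *ilys-2* at 233, *lys-7* at 145, *lys-8* at 121, *lys-1* at 33.4, *lys-2* at 20.8 and *lys-4* at 8.17 RPM per kb. Upon control RNAi *ilys-5* was at 8322 RPM per kb, followed by *ilys-2* at 188, *ilys-3* at 171, *lys-7* at 130, *lys-8* at 31.7, *lys-1* at 19.2, *lys-2* at 14.1 and *lys-4* at 4.57 RPM per kb. The order differed in that *ilys-3* stood above *ilys-2* upon *unc-62* RNAi. Upon *unc-62* RNAi the library values of neighbours in the order overlapped from *ilys-3* down to *lys-8* and between *lys-1* and *lys-2*, and upon control RNAi they overlapped from *ilys-2* down to *lys-7* and from *lys-8* down to *lys-2*. Because reads came from 3′ ends, levels per length are only a rough scale between genes.

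Within each treatment the members did not vary together. In both treatments, the library of replicate 1 had the highest *lys-1* and *lys-7* and the lowest *ilys-2*, *ilys-3* and *ilys-5*. Replicate 1 deviated from its treatment mean by 0.81 (*lys-1*), 0.59 (*lys-7*), −1.20 (*ilys-2*), −1.51 (*ilys-3*) and −0.47 (*ilys-5*) on the log2 scale upon *unc-62* RNAi. Upon control RNAi these deviations were 0.42, 0.59, −0.66, −0.39 and −0.33 for the same genes. After the treatment means were taken out, *lys-1* and *lys-7* had a Pearson r of 0.935, *ilys-2* and *ilys-5* of 0.91, and *lys-1* and *ilys-3* of −0.97 over the 6 libraries. These correlations share libraries, batches and scaling, and are descriptions only.

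**Figure D3:**
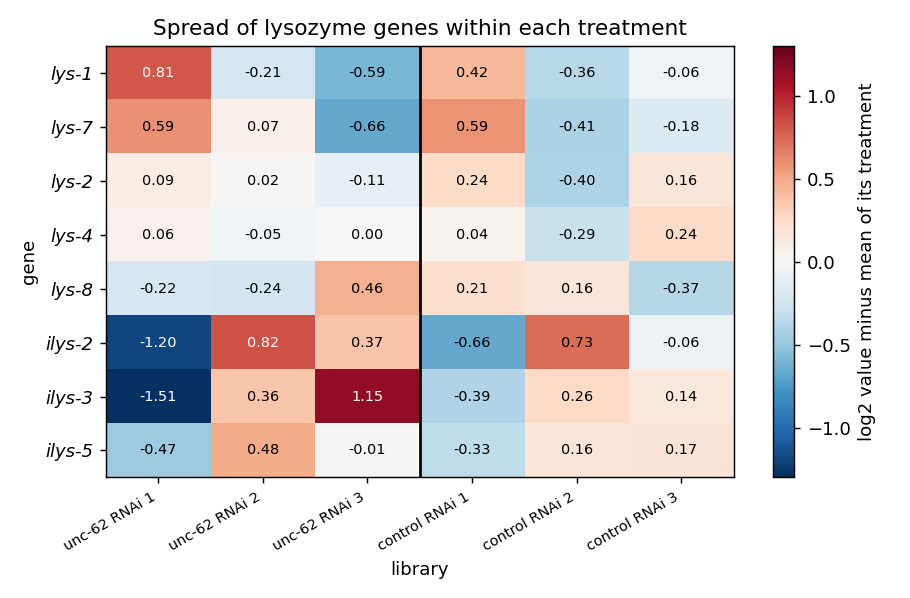
Log2 value of each tested lysozyme gene minus the mean of its treatment, by library, with the 3 *unc-62* RNAi libraries left of the line and the 3 control RNAi libraries right of it. Red is above and blue below the mean of the treatment, in log2 units. Replicate 1 is above the mean for *lys-1* and *lys-7* and below it for *ilys-2*, *ilys-3* and *ilys-5* in both treatments.

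3 protist-type members had a second listed transcript with appreciable reads. A read counts for each transcript that it maps to, so the percentages below are not proportions of transcript use. In *lys-8* the second transcript, C17G10.5.2, had 38.4%, 44.7% and 78.2% as many reads as the first, C17G10.5.1, upon *unc-62* RNAi, and 51.8%, 50.5% and 44.9% upon control RNAi. The *unc-62* RNAi library of replicate 3 stood apart, with a 95% Wilson interval of 76.6% to 79.8%. That of replicate 1 was the lowest. That of replicate 2 (interval 42.6% to 46.8%) was level with the control library of replicate 3 (40.5% to 49.4%). The second transcript of *lys-1* had 49.2%, 41.4% and 48.9% as many reads as the first upon *unc-62* RNAi and 64.5%, 55.3% and 42.2% upon control RNAi, which overlapped. For *lys-7* the percentages were 87.0%, 85.3% and 83.5% upon *unc-62* RNAi and 90.7%, 88.55% and 86.1% upon control RNAi, also overlapping. The minor transcript of *ilys-5*, F22A3.6b, had 15, 27 and 63 reads upon *unc-62* RNAi and 35, 19 and 11 upon control RNAi.

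**Figure D4:**
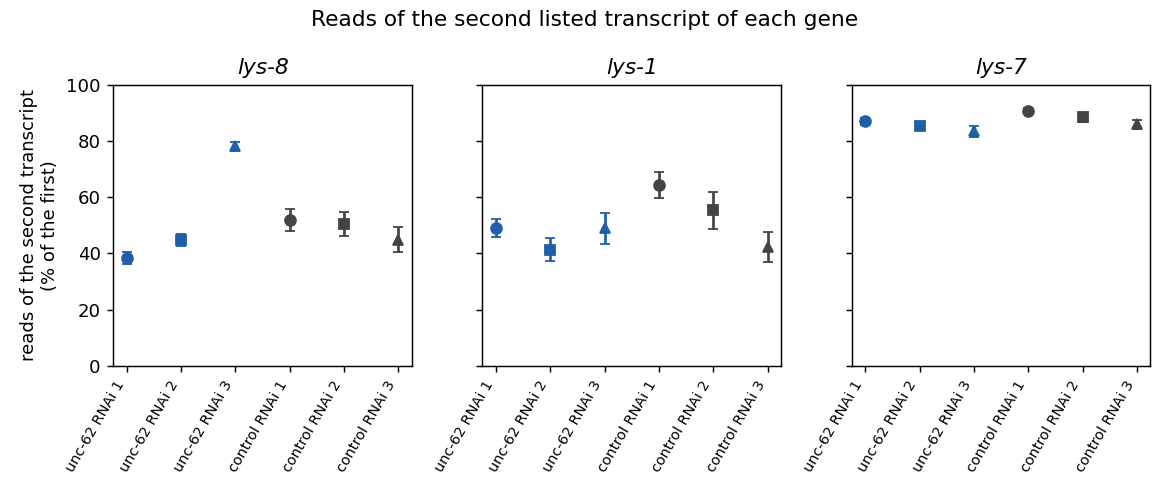
Reads of the second listed transcript as a percent of those of the first, for *lys-8*, *lys-1* and *lys-7*, by library, with *unc-62* RNAi in blue at the left, control RNAi in grey at the right and 95% Wilson intervals as bars. A read can count for both transcripts, so these are not proportions of transcript use. For *lys-8* the *unc-62* RNAi library of replicate 3 is at 78.2%, and the other 5 libraries are between 38.4% and 51.8%.

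Of the 6 other lysozyme genes of the worm, *ilys-4* reached the read minimum. It had 24, 14 and 55 reads upon *unc-62* RNAi and 6, 5 and 1 upon control RNAi, so the treatments did not overlap, with a log2 fold change of 2.54 ± 0.86 (SE; limma adjusted p = 0.303). As a gene that reached the minimum only upon *unc-62* RNAi, it could enter the fit only by being high there. *lys-3*, *lys-9*, *lys-10*, *ilys-1* and *ilys-6* had 0 to 7 reads in each library.

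For each tested member, the pair of genes with the most similar pattern was sought among 2846 tested genes with a mean of at least 100 reads, by Pearson r of log2 values over the 6 libraries. For *lys-8* these were Y39G8B.9 (r = 1.00) and the C-type lectin gene *clec-62* (0.99), for *lys-4* *grsp-1* (0.99) and F54D5.3 (0.99), for *lys-1* *ola-1* (0.97) and *igcm-3* (0.97), and for *lys-2* the ATP synthase gene *asb-1* (0.99) and the cystatin gene *cpi-1* (0.97). For *lys-7* they were Y62F5A.12 (0.99) and the recombinase gene *rad-51* (0.99), for *ilys-2* M02B7.2 (0.99) and the ribosomal protein gene *rpl-22* (0.98), for *ilys-3* *znf-207* (0.99) and H06I04.6 (0.98), and for *ilys-5* *duxl-1* (1.00) and Y73B3A.18 (0.99). With 6 points, the highest of 2846 values is close to 1 for each member, and no lysozyme is among these genes because lysozymes were left out.

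Genes upstream of worm immune effectors were listed by pathway: 20 genes, most of them of the p38 MAP kinase, insulin, DBL-1/TGF-β, GATA and TFEB pathways, with *bar-1* (β-catenin), *tol-1* (Toll), *zip-2* and *skn-1* beside them. Of the 13 with enough reads, 0 were called by limma in either direction, where 1.31% of tested genes were. An unadjusted p under 0.05 was found for 3 (*atf-7*, *daf-2* and *dbl-1*), where 13.3% of tested genes passed. The median log2 fold change of the 13 was −0.18, beside 0.04 over all tested genes. Lowest was *dbl-1*, the TGF-β ligand, at −1.26 (limma adjusted p = 0.146), and highest was *sma-9*, a cofactor of that pathway, at 0.07 (limma adjusted p = 0.965). *dbl-1* had 7, 12 and 16 reads upon *unc-62* RNAi and 20, 21 and 38 upon control RNAi. *dbl-1* and *nsy-1*, both below 0, reached the read minimum only upon control RNAi and entered the fit only through those libraries. The median of −0.18 includes both. *atf-7*, the p38-regulated transcription factor, averaged 36.2 RPM upon *unc-62* RNAi and 76.3 RPM upon control RNAi, with a log2 fold change of −1.11 (limma adjusted p = 0.12), and *daf-2*, the insulin receptor, was at −0.86 (limma adjusted p = 0.252). *atf-7* and *daf-2* were singled out after their values were seen.

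The lysozymes are known from several tissues, so marker lists of 6 tissues were set beside them. The 14 intestinal genes were all detected, and their summed level was 6712 to 8282 RPM upon *unc-62* RNAi and 4119 to 5392 RPM upon control RNAi, which did not overlap. Of 13 tested, 9 had a log2 fold change above 0 and 4 below, where 3966 of the 7333 tested genes were above 0. By limma 0 were called, where 1.31% of tested genes were. An unadjusted p under 0.05 was found for 5 (*ges-1*, *asp-1*, *ftn-1*, *mtl-2* and *acdh-1*), where 13.3% of tested genes passed. *ges-1*, *ifb-2* and *pept-1*, all above 0, reached the read minimum only upon *unc-62* RNAi and entered the fit only through those libraries. The filter thus had a part in the count of 9 and in the median. The median was 0.24, with extremes of −1.25 for *acdh-1* (limma adjusted p = 0.135) and 1.99 for *asp-1* (limma adjusted p = 0.187). The sum was carried by the metallothionein gene *mtl-2* and the aspartyl protease gene *asp-1*, which together averaged 6919 ± 715 RPM upon *unc-62* RNAi and 4241 ± 567 RPM upon control RNAi (SD, n = 3 each). The other 12 genes summed to 327, 353 and 557.1 RPM upon *unc-62* RNAi and 557.0, 534 and 412 RPM upon control RNAi, which overlapped and had the lower mean upon *unc-62* RNAi (412 against 501 RPM). *cpr-6* made up most of this sum, averaging 353.5 RPM upon *unc-62* RNAi and 449.3 RPM upon control RNAi. The lower mean of the 12 thus says little of the rest. *lys-8* and *lys-4* differed in the same direction as *mtl-2*, *asp-1* and most of the 13 tested intestinal genes. They differed in the opposite direction to the 4 below 0, *acdh-1*, *cpr-6*, *elt-2* and *act-5*. The part of the intestinal markers in their values was not tested. Of 5 tested hypodermal genes, the cuticle collagen gene *rol-6* was lowest and was called, with a log2 fold change of −2.64 (limma adjusted p = 0.0808). *dpy-10* was highest at 0.28. There were 4 at an unadjusted p under 0.05, where 13.3% of tested genes passed, all with values below 0 (*rol-6*, *sqt-3*, *col-19* and *col-140*). The median was −0.86. *rol-6* had 6, 5 and 8 reads upon *unc-62* RNAi and 21, 29 and 101 upon control RNAi. *rol-6* and *sqt-3* reached the read minimum only upon control RNAi, so they could enter the fit only by being high there. The 8 hypodermal genes listed summed to 387.5 to 789.5 RPM upon *unc-62* RNAi and to 627 to 1526 RPM upon control RNAi. Of 3 tested pharyngeal genes, the myosin gene *myo-2* was lowest and was called, at −2.27 (limma adjusted p = 0.096). *tni-4* was highest at 0.04, and the median was −0.05. *myo-2* had 6, 8 and 2 reads upon *unc-62* RNAi and 19, 45 and 15 upon control RNAi. It too could enter the fit only by being high upon control RNAi. The sum of the 7 pharyngeal genes found was 2.32 to 3.39 RPM upon *unc-62* RNAi and 3.68 to 5.97 RPM upon control RNAi, with *ceh-22* at 0 in every library.

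The other marker lists had 0 genes called by limma, where 1.31% of tested genes were, and 13.3% of tested genes had an unadjusted p under 0.05. The 8 germline and oocyte genes had 0 at an unadjusted p under 0.05 and a median log2 fold change of −0.05, between −0.55 for *gld-1* and 0.34 for *egg-1*, and summed to 560.5 to 610 RPM upon *unc-62* RNAi and 540 to 584 RPM upon control RNAi. The 7 body wall muscle genes had 2 (*unc-54* and *myo-3*) and a median of −0.33, between −1.27 for *myo-3* and 0.62 for *tnt-2*, and summed to 434 to 605 RPM upon *unc-62* RNAi and 349 to 882 RPM upon control RNAi. The 4 tested neuronal genes had 1 (*flp-1*) and a median of 0.04, between −0.66 for *egl-3* and 1.02 for *flp-1*. *flp-1* reached the read minimum only upon *unc-62* RNAi. The 7 neuronal genes found summed to 26.9 to 36.2 RPM upon *unc-62* RNAi and 19.2 to 42.7 RPM upon control RNAi.

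Leaving out replicate 3 from both treatments changed the calls of the members most. By limma, *lys-1* (log2 fold change 0.95, adjusted p = 0.000424), *lys-2* (log2 fold change 0.72, adjusted p = 0.0172), *lys-4* (log2 fold change 0.97, adjusted p = 0.0038), *lys-8* (log2 fold change 1.54, adjusted p = 2.82e-09) and *ilys-3* (log2 fold change 0.58, adjusted p = 0.0395) were then called, 5 of 8 members, where 16% of tested genes were (1172). Without replicate 1, 0 of the 8 were called, as were 0% of all tested genes, and without replicate 2, 0 of the 8, where 0.314% were (23 genes), so that these counts say little of the members. In these fits *lys-8* had log2 fold changes of 2.15 (limma adjusted p = 0.448) and 2.12 (limma adjusted p = 0.307). Every fit with a replicate number left out had few libraries from which to estimate a gene's own spread. Their adjusted p values lean on spread shared across genes, so the 5 calls without replicate 3 are no firm result either.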

How the data were processed

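Poly(A)+ RNA from 6 whole-worm samples was measured. The deposited signal values are RPM per transcript: per the study's methods, the authors mapped reads with Bowtie 0.12.7 (CASAVA 1.7.0 upstream) to WS215 with up to 2 mismatches and counted reads mapping uniquely to the sense strand, so that reads mapping equally well elsewhere are left out. Whether neighbours of a family (*lys-1* and *lys-2*, *ilys-2* and *ilys-3*) lose reads in this way was not tested, and their values are uncertain to that extent. Column sums exceed 1000000 because a read counts for each of a gene's transcripts. Each library's total, given here as its uniquely mapped reads, was recovered from the value of 1 read. This turned 100.0% of the 153186 values into whole numbers (tolerance 0.01). The transcript with the highest mean was kept for each gene. 16959 of 17682 genes matched RefSeq WBcel235, used only for names, gene order and exon length. No sequences, coordinates or promoter motifs were analysed here.

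Genes with at least 10 reads in all 3 libraries of a treatment were tested with limma 3.58.1 (trend) in R 4.3.3 on log2(RPM + 0.05) after TMM scaling (edgeR 4.0.16), two-sided, with replicate number as a block and Benjamini-Hochberg adjustment over all 7333. The block follows the study's methods, where each batch was split between the treatments, and takes equal replicate numbers in the labels as the same batch. Same-numbered libraries correlated in their deviations at 0.42, 0.20 and −0.18 for replicates 1, 2 and 3. Across numbers, *unc-62* RNAi replicate 2 correlated with control replicate 3 at 0.26. *unc-62* RNAi replicate 3 correlated with control replicates 1 and 2 at 0.104 and 0.100. Among the *unc-62* RNAi libraries, only replicate 1 was thus closest to its same-numbered control, and these values do not bear out the block for replicates 2 and 3. TMM took reads on tested genes as library size. Uniquely mapped reads were tried first and called *lys-8*. Several library sizes were then tried, and the one kept, edgeR's default, gave the same counts of calls as an earlier analysis of these data. This choice was made with both results seen. DESeq2 1.42.0, edgeR, rank products, other filters, pseudocounts and left-out libraries were alternatives. Fits were also run on simulated counts, with noise drawn independently for each gene and library and no batch effects. The simulated setting differs from these data in that respect and does not show how the fits perform here. Replicates differed by more than sampling noise (chi-square over degrees of freedom 37.9 to 204).

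Genes named are the members, the other lysozymes, called genes and extremes of the lists, and the 2 genes most like each member. Others (such as *atf-7*, *ges-1*, *mtl-2*, *col-19*, *unc-54* and *ceh-22*) were named after their values were seen, to say which genes a small count holds, and so was the split of the intestinal sum. The members, the lists and some added alternatives were chosen with earlier results of these data known. No group of 3 was screened for outlying libraries.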

Additional observations from a re-analysis of the deposited data

How the results depend on the processing

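The number of lysozyme genes called was 1 (*lys-8*), in place of 0, in limma with no replicate block, with RPM as deposited, with no filter beyond 1 read, with a 50-read filter, with transcripts averaged and with TMM on uniquely mapped reads, and in DESeq2, rank products and edgeR with no block. It stayed 0 with DESeq2 size factors, both other pseudocounts and edgeR with the block. Leaving out 1 replicate number gave 0 to 5 members and 0 to 1172 genes, and leaving out 1 library with no block gave 0 to 1 members (0 without control RNAi replicate 2 or 3) and 24 to 113 genes, all below the 142 of the full fit with no block (38, 60, 24 and 31 without *unc-62* RNAi replicate 1 or 3 or control RNAi replicate 2 or 3). Over all genes, 142 were called with no replicate block, 255 with no filter, 57 with the 50-read filter, 294 by DESeq2 and 182 by rank products. The *lys-8* log2 fold change was 1.54 to 2.15 over 21 settings, with adjusted p of 2.82e-09 to 0.448. Signs turned for *lys-7* (−0.12 to 0.39 with 1 replicate number left out, −0.18 without *unc-62* RNAi replicate 1, −0.0861 without control RNAi replicate 2), *ilys-2* (−0.0065 to 0.46 with 1 replicate number left out, −0.22 and −0.0093 without *unc-62* RNAi replicate 2 or 3, −0.18 without control RNAi replicate 1) and *ilys-5* (0.10 without *unc-62* RNAi replicate 1). The block changed no other member's call. The causes were not tested. *ilys-4* was called by DESeq2 (adjusted p = 0.0912), by rank products and without replicate 3. Single-library settings, edgeR with no block and TMM on uniquely mapped reads were chosen after seeing the data. With 3 libraries a treatment and 1 lane each, depth limits *lys-5* and *lys-6*, and library spread limits the rest.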
